A study of Mus musculus with 15 samples.

Results

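The genes described here are the translation factors and aminoacyl-tRNA synthetases of the mouse jejunal epithelium, 84 of the 16592 genes that had a named probe on the arrays. They were taken by symbol. All genes named as eukaryotic initiation or elongation factors were kept, without the eIF2 kinases, together with the genes named as synthetases of a single amino acid, Eprs, Farsa and Farsb. There were 54 genes grouped as translation factors. By symbol, 41 were placed with the initiation factors and 13 with the elongation factors and their modifying enzymes, eIF5A included. Of the 30 synthetases, 19 were cytosolic and 11 mitochondrial, with Gars and Kars, whose products serve both compartments, among the cytosolic ones. Eif2s1 and Eif4g1 had no named probe and were not analysed here.

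Total RNA was measured on 15 single-colour bead arrays, 1 per sample. Nothing in the labels says that replicates are separate mice, so p-values measure the spread between these samples, and no age is given. The Brg1-Apc deficient mice (VillinCreERT2+ Apcfl/fl Brg1fl/fl, n = 4) lost both genes, the Apc deficient mice (VillinCreERT2+ Apcfl/fl Brg1+/+, n = 3) lost Apc, the Brg1 deficient mice (VillinCreERT2+ Brg1fl/fl, n = 4) lost Brg1, and the control mice (VillinCreERT2-, n = 4) carried no Cre. VillinCreERT2 is a tamoxifen-activated Cre recombinase under the villin promoter, which is active in gut epithelium, and fl marks an allele that Cre inactivates. Every mouse, controls included, received 4 daily injections of tamoxifen at 80 mg/kg, and epithelium scraped off the jejunal muscle wall was taken on day 4. Brg1 is an ATPase of the SWI/SNF chromatin remodelling complexes, and Apc restrains Wnt signalling. The groups ask what loss of Brg1 does to the epithelium with normal and with aberrant Wnt signalling. Because the controls lacked Cre, the effect of an active Cre and that of the deleted gene cannot be told apart in comparisons with control. The same limit holds for the interaction, which uses the controls.

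A ribosome starts on an mRNA when eIF2 brings the initiator tRNA, eIF3 and eIF4 factors bring the mRNA, and eIF5 and eIF5B complete the start. The exchange factor eIF2B recharges eIF2 with GTP. Elongation needs eEF1A to deliver each loaded tRNA, the eEF1B subunits to recharge eEF1A, eEF2 to move the ribosome, and eIF5A to pass difficult stretches. Each synthetase loads 1 kind of tRNA with its amino acid, the cytosolic ones for ribosomes of the cytosol and the mitochondrial ones for those of the organelle. Several cytosolic synthetases are held in 1 large complex, to which the product of Eef1e1 also belongs. Myc and the stress-responsive factor ATF4 are known activators of genes of this machinery, and crypt cells driven by Wnt signalling grow and divide fast.

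Values are deposited log2 signals. Smarca4, the gene of Brg1, read at most 6.16 on the 4 Brg1-Apc deficient arrays and 6.36 on the 4 Brg1 deficient arrays, and at least 7.88 on the 3 Apc deficient and 7.35 on the 4 control arrays. Apc differed by 0.08 in Apc deficient against control mice (SE 0.47, adjusted p = 0.956). Whether its probe lies in the deleted part is not known here, so it does not check that genotype. Array medians lay between 5.59 and 5.90, so a value near or below 5.90 is close to background. Markers of jejunal epithelium averaged between 10.35 and 11.63 on every array. The values of Brg1 deficient replicate 4 were compressed, as their interquartile range was 1.23, where 14 arrays had 1.89 to 2.56. This range averaged 2.145 on the Brg1-Apc deficient, 2.446 on the Apc deficient, 1.897 on the Brg1 deficient and 2.36 on the control arrays. A narrower range lowers bright probes, and its part in the differences below was not tested. Control replicate 1 was high in smooth muscle markers (mean 9.17, at most 7.49 elsewhere), and control replicate 4 in markers of the acinar pancreas (mean 10.22, at most 6.38 elsewhere). Each slide position held a single genotype, so position and genotype cannot be told apart. The first slide carried replicates 1 and 2 of every genotype, and the second carried the rest. The labels give no sex, but Xist, the transcript of the inactive X, read 7.05, 5.44, 5.84 and 7.02 on the Brg1-Apc deficient arrays, 7.52, 7.48 and 5.45 on the Apc deficient arrays, 5.20, 7.35, 5.25 and 5.91 on the Brg1 deficient arrays, and at most 5.57 on the 4 control arrays. High Xist was thus seen on 2 of 3 Apc deficient arrays and on 0 of 4 control arrays, so Xist level and genotype are partly mixed.

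Of the 84 genes, 67 had a mean over the 15 arrays above 5.90. The other 17, 13 factors and 4 synthetases, were close to background, among them Eif4e, which binds the mRNA cap, and both genes of eEF1A, Eef1a1 and Eef1a2. Their probes cannot show a difference reliably. The highest-level probe stood for a gene with several, and 35 of the 84 genes had more than 1.

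**Figure D1:**
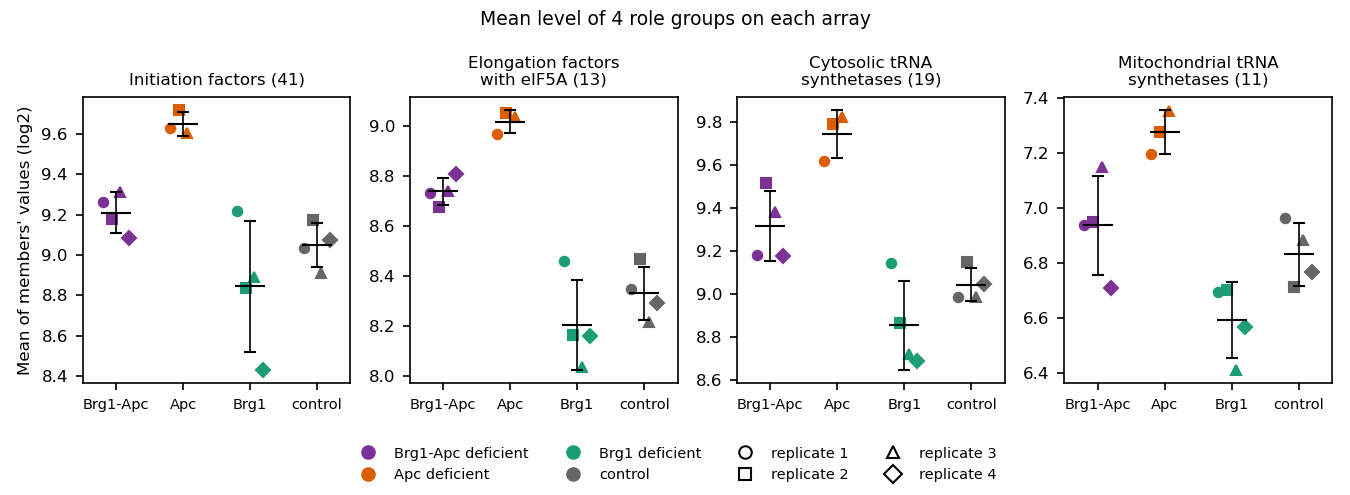
Mean log2 value of the genes of each role group (vertical axis) on each array, by genotype (horizontal axis). Points are arrays with a symbol per replicate number, and bars are the group mean ± SD. In all 4 panels the 3 Apc deficient arrays lay above the 4 control arrays.

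Averaged over the 84 genes, the values lay between 8.75 and 8.96 on the Brg1-Apc deficient arrays, 9.21 and 9.31 on the Apc deficient arrays, 8.20 and 8.75 on the Brg1 deficient arrays, and 8.55 and 8.74 on the control arrays. The Apc deficient arrays overlapped with no other group in this mean. The Brg1-Apc deficient arrays lay below them and above the 4 controls. Levels are means per sample of scraped tissue, in which fewer cells of a type and less RNA per cell cannot be told apart.

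In Apc deficient against control mice, 31 of the 84 translation factor and synthetase genes rose, 0 fell and 53 did not pass the test (limma adjusted p under 0.05), where 8.14% of all genes were called higher and 7.09% lower. At an unadjusted p under 0.05, 38 were higher and 1 was lower. The share of all genes at an unadjusted p was not counted in any comparison. Of 54 factors 19 were called, or 35.2%, and of 30 synthetases 12, or 40%. The median difference was 0.72 on the log2 scale for factors and 0.52 for synthetases, against -0.03 for all genes. Over all genes of the array with a mean above 5.90, of which there were 7632, 16.6% were called higher and 14.5% lower. On slide 1 alone, with 2 Apc deficient and 2 control arrays, the medians were 0.72 for factors and 0.65 for synthetases. On slide 2, with 1 Apc deficient array, they were 0.64 and 0.57.

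The counts depended on the arrays kept, while the medians moved little. Without Apc deficient replicate 2, the number of called factors was 12. Without control replicates 1 and 4, on which markers of other tissues were high, 8 factors and 5 synthetases were called, with medians of 0.74 and 0.58. With Xist as a covariate, 16 factors and 9 synthetases were called, with medians of 0.66 and 0.60. Markers of T cells and intraepithelial lymphocytes averaged 6.14 to 6.61 on the Apc deficient arrays and 7.11 to 7.98 on the control arrays, with 5 of 9 called lower and 0 higher. Markers of jejunal epithelium averaged 10.64 ± 0.33 on the 3 Apc deficient arrays and 11.57 ± 0.03 on the 4 control arrays (SD), with 5 of 9 called lower and 0 higher. The part of these shifts in the translation genes was not tested.

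**Figure D2:**
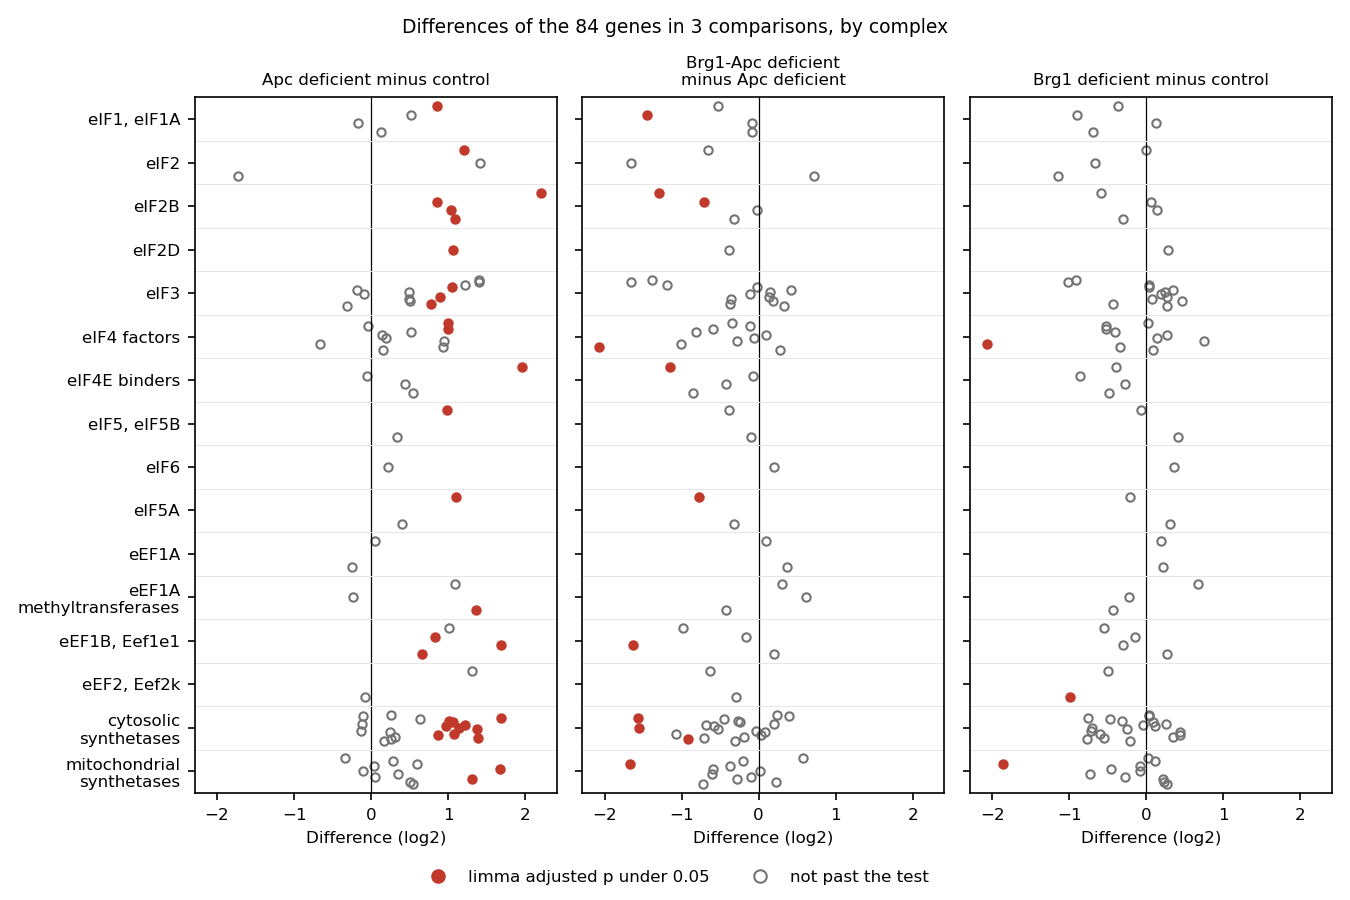
Log2 difference of each of the 84 genes (horizontal axis) by complex (vertical axis) in 3 comparisons. Filled points passed the test and open points did not, and filled points lie right of 0 in Apc deficient minus control and left of 0 in the other panels.

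The 4 analysed subunits of the exchange factor eIF2B rose in Apc deficient mice, while the gene of its gamma subunit, Eif2b3, was not analysed here. They were called higher with differences from 0.86 for Eif2b2 to 2.20 for Eif2b1. Eif2b1, its alpha subunit, read 11.56, 11.54 and 11.46 on the Apc deficient arrays, against 9.36, 9.62, 8.93 and 9.40 on the control arrays. These groups did not overlap and the Apc deficient arrays lay close together. The difference was 4.59-fold (2.20, SE 0.37, adjusted p = 0.000691). Eif2b4, its delta subunit, averaged 11.10 ± 0.17 in Apc deficient mice (n = 3) and 10.06 ± 0.24 in control mice (SD, n = 4), a difference of 1.04 (SE 0.21, adjusted p = 0.00306). Of eIF2 itself, Eif2s2, its beta subunit, averaged 10.77 ± 0.17 in Apc deficient and 9.56 ± 0.10 in control mice (difference 1.20, SE 0.25, adjusted p = 0.00288). Eif2d, which can place the initiator tRNA without eIF2, was higher by 1.06 (SE 0.20, adjusted p = 0.00156).

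Among the genes named as eIF4 factors and their binders, Eif4ebp1 and the helicase genes Eif4a1 and Eif4a3 were called higher. Eif4a3 is placed here by its symbol, which does not show that it acts at the cap. Eif4ebp1 encodes a repressor that keeps eIF4E from the cap until mTORC1 phosphorylates it, and is a known ATF4 target. It read 9.95, 10.67 and 10.59 on the Apc deficient arrays, against 7.98, 8.96, 7.94 and 8.90 on the control arrays. All 3 Apc deficient arrays lay above all 4 controls, and the difference was 3.88-fold (1.96, SE 0.33, adjusted p = 0.000589). Eif4a1, the main RNA helicase of the cap complex, read 13.91, 13.93 and 14.25 in Apc deficient mice, against 13.07, 12.97, 12.95 and 13.11 in control mice. This 2.01-fold difference (SE 0.19 on the log2 scale, adjusted p = 0.00134) had no overlap either. Its paralogue Eif4a2 differed by -0.05 (SE 0.19, adjusted p = 0.938), at 12.78 ± 0.12 in Apc deficient and 12.82 ± 0.16 in control mice. The 3 other eIF4E-binding genes, Eif4ebp2, Eif4ebp3 and Eif4enif1, were not called.

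Of the 12 measured eIF3 subunits, the scaffold on which the small ribosomal subunit meets the mRNA, 3 were called higher. Eif3d was higher by 1.04 (SE 0.24, adjusted p = 0.00582), Eif3i by 0.89 (SE 0.21, adjusted p = 0.0081) and Eif3l by 0.77 (SE 0.18, adjusted p = 0.00783), the last not called without Apc deficient replicate 2 (adjusted p = 0.0575). The other 9 ranged from -0.32 for Eif3m to 1.40 for Eif3b. Eif3a, Eif3b and Eif3c, the core subunits, had differences of 1.40, 1.40 and 1.22 that did not pass (SE 0.48, 0.59 and 0.42, adjusted p = 0.0672, 0.148 and 0.0713). Of these 9, Eif3e, Eif3h, Eif3j1 and Eif3m had probes close to background. Eif5, which triggers GTP use by eIF2, rose by 0.99 (SE 0.21, adjusted p = 0.0033), and Eif1a by 0.86 (SE 0.26, adjusted p = 0.0353). Eif6, which keeps the ribosomal subunits apart, did not pass at 0.22 (SE 0.23, adjusted p = 0.682).

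Of the 13 elongation genes, 5 were called higher. Eif5a, whose product carries the modified residue hypusine, read 11.66, 12.05 and 11.63 on the Apc deficient arrays, against 10.77, 11.12, 10.44 and 10.37 on the control arrays. No control array reached the lowest Apc deficient one, and the difference was 2.15-fold (1.10, SE 0.21, adjusted p = 0.00187). The second probe of Eif5a, with a mean of 10.48, did not pass (1.30, adjusted p = 0.399). Eef1e1, the gene of the scaffold protein p18 of the synthetase complex, read 8.90, 9.60 and 8.84, against 7.74, 7.85, 7.18 and 6.93 in control mice. Its difference of 1.69 (SE 0.40, adjusted p = 0.00769) lost its call without Apc deficient replicate 2 (adjusted p = 0.0612). Eef1aknmt, a methyltransferase of eEF1A, averaged 8.52 ± 0.12 in Apc deficient and 7.16 ± 0.31 in control mice (difference 1.36, SE 0.24, adjusted p = 0.000948). Of the eEF1B subunits, Eef1d was higher by 0.82 (SE 0.21, adjusted p = 0.0118) and Eef1g by 0.66 (SE 0.20, adjusted p = 0.037), while Eef1b2 did not pass at 1.01 (SE 0.38, adjusted p = 0.104). The call of Eef1g ended without any single Apc deficient array and without control replicate 1, 3 or 4.

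Eef2, the gene of the translocase, read 11.90, 11.83 and 11.78 on the Apc deficient arrays, against 10.36, 10.96, 10.45 and 10.33 on the control arrays. These groups did not overlap, but the difference of 1.31 did not pass (SE 0.63, adjusted p = 0.228). The spread in the test is shared by all groups, and the Brg1 deficient arrays read 11.30, 10.27, 11.21 and 7.35. Eef2k, which encodes the kinase that inhibits eEF2, differed by -0.08 (SE 0.21, adjusted p = 0.891).

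**Figure D3:**
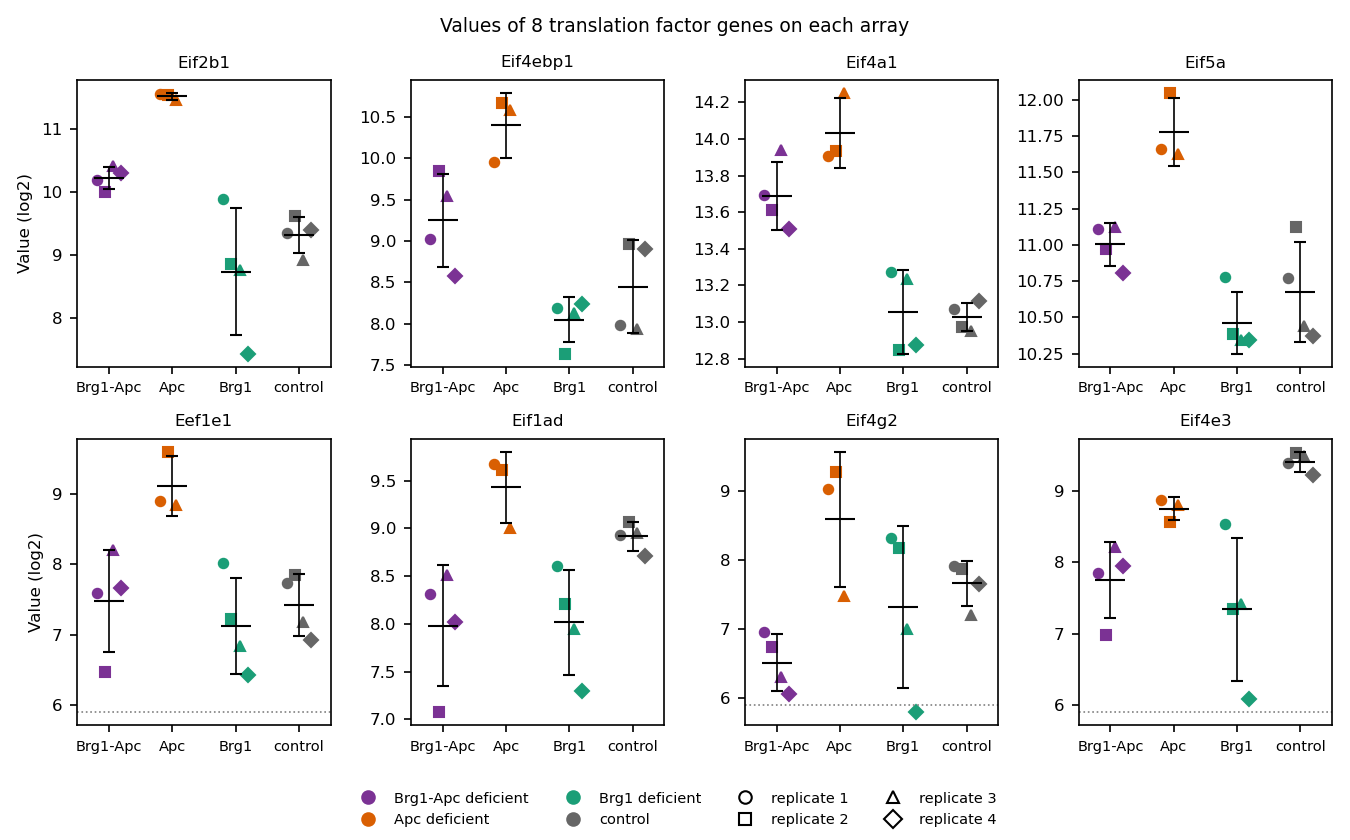
Log2 values of 8 translation factor genes on each array (vertical axes differ between panels) by genotype. Points are arrays, bars are mean ± SD, and the dotted line marks 5.90, the highest array median, where a panel reaches near it. Eif2b1, Eif4ebp1, Eif5a and Eef1e1 were highest on the 3 Apc deficient arrays, and Eif4e3 on the 4 control arrays.

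Cytosolic synthetases were called higher in 10 of 19 cases in Apc deficient mice, or 52.6%, and in 0 cases lower. These loaded glycine, isoleucine, lysine, leucine, methionine, arginine, serine and valine onto tRNA (Gars, Iars, Kars, Lars, Mars1, Rars, Sars and Vars), glutamate and proline (Eprs), or formed the beta subunit of the phenylalanine enzyme (Farsb). Farsb read 11.97, 12.18 and 12.21 on the Apc deficient arrays, against 11.16, 11.31, 11.04 and 10.92 on the control arrays. The difference was 2.02-fold (1.01, SE 0.19, adjusted p = 0.00122). Mars1 read 9.80, 10.06 and 10.11, against 8.53, 8.71, 8.29 and 8.94 in control mice (difference 1.37, SE 0.27, adjusted p = 0.00233). Iars read 10.17, 10.59 and 10.54, against 9.13, 9.48, 9.11 and 9.15 in control mice (difference 1.22, SE 0.25, adjusted p = 0.00314). In none of these 3 genes, named for their small p in this comparison, did an Apc deficient array fall to the level of a control array.

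Eprs, whose product is both a synthetase and a member of an interferon-activated translation silencer, differed by 1.69 (SE 0.42, adjusted p = 0.0117). Its call ended without Apc deficient replicate 1 or 2 (largest adjusted p = 0.0637). Lars, the leucine enzyme, differed by 1.14 (SE 0.32, adjusted p = 0.0244), a call that ended without any single Apc deficient array and without control replicate 2, 3 or 4. Gars, a bright probe, averaged 13.83 ± 0.17 in Apc deficient and 12.77 ± 0.09 in control mice (difference 1.06, SE 0.25, adjusted p = 0.00805). The 9 cytosolic synthetases that did not pass ranged from -0.13 for Nars to 0.63 for Farsa. Qars, the glutamine enzyme, averaged 12.12 ± 0.07 in Apc deficient and 11.88 ± 0.07 in control mice (difference 0.24, SE 0.19, adjusted p = 0.533).

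Of the 11 mitochondrial synthetases, 2 were called higher, or 18.2%, and 0 lower. Whether this share differs from the cytosolic one was not tested, and Hars2, Nars2 and Yars2 were close to background. Mars2, the mitochondrial methionine enzyme, read 8.41, 8.68 and 8.96 on the Apc deficient arrays, against 7.18, 7.16, 6.75 and 6.97 on the control arrays. The groups did not overlap, and its adjusted p was the lowest of the 84 genes in this comparison (1.67, SE 0.25, adjusted p = 0.00028). Vars2, the valine enzyme, averaged 8.74 ± 0.39 in Apc deficient and 7.43 ± 0.13 in control mice (difference 1.30, SE 0.30, adjusted p = 0.006). Lars2, Nars2 and Sars2 differed by 0.04, -0.10 and 0.04 and did not pass.

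**Figure D4:**
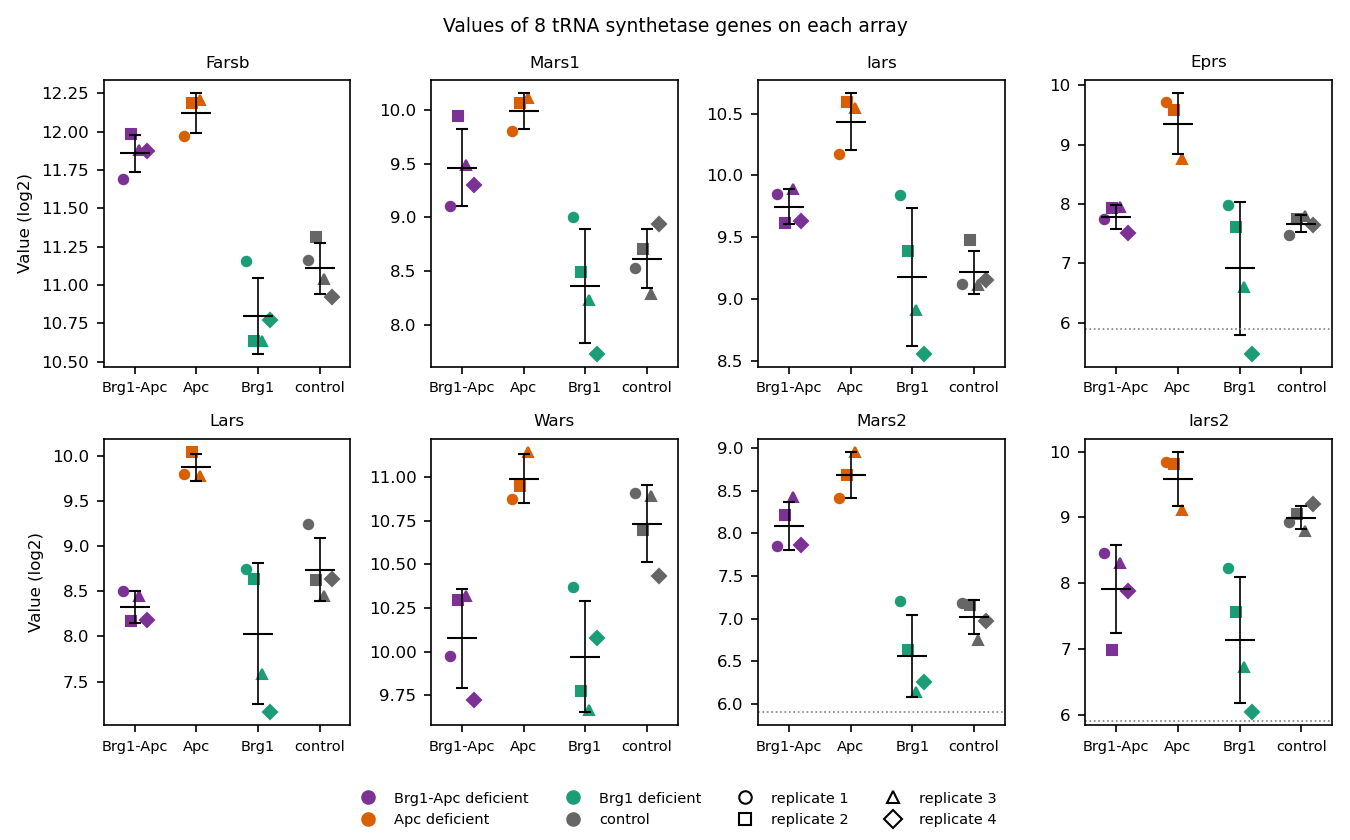
Log2 values of 8 tRNA synthetase genes on each array (vertical axes differ between panels) by genotype. Points are arrays, bars are mean ± SD, and the dotted line marks 5.90, the highest array median, where a panel reaches near it. Farsb, Mars1 and Mars2 stayed above the control arrays on the Brg1-Apc deficient arrays, while Wars and Iars2 lay below them there.

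Second probes gave the same sign in most cases. The 31 called genes had 29 further probes, of which 26 differed in the same direction and 11 passed the test on their own. Of the 3 with the opposite sign, 0 passed and 0 were above background.

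RefSeq promoter windows on GRCm38.p6, from 250 bases before to 50 after a gene's start, were at hand for 63 of the 84 genes. They were searched on both strands for 2 short motifs. The letters CACGTG are the E-box that Myc and its partners bind, and read the same on both strands. They were in the windows of 16 of the 63 genes, or 25.4%, and of 8.09% of all 27025 genes with such windows. Those 27025 genes were not limited to genes on the arrays or above background. A gene counted if any of its windows held the letters, and whether the shares differ was not tested. The E-box was found for 5 of the 23 genes called higher in Apc deficient mice, or 21.7%, and for 11 of the other 40, or 27.5%. The letters TTGCATC, known from elements that ATF4 binds, were in the windows of 4 of the 63 genes, or 6.35%, and of 2.89% of all 27025 genes. The 4 were the synthetase genes Aars, Iars, Tars and Yars. Of the 23 genes called higher in Apc deficient mice, 1 held these letters, or 4.35%, and of the other 40, 3 did, or 7.5%. A match describes these letters only and shows no binding. Stretches before the start are shown for the 5 genes with an E-box that were called higher and, for contrast, for Aars, which holds both motifs and was not called (difference 0.26, SE 0.25, adjusted p = 0.64). Capitals mark the motifs, and sequences run 5′ to 3′ on the strand of the gene.
Eif4a1, chr11:69672559-69672659, minus strand: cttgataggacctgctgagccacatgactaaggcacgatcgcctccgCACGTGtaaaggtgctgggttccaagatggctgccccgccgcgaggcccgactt
Eif5a, chr11:69921407-69921507, minus strand: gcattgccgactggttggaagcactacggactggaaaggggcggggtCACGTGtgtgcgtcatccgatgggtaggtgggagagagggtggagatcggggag
Eef1aknmt, chr1:162548439-162548539, minus strand: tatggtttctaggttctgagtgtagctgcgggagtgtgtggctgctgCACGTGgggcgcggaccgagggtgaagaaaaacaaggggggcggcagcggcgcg
Farsb, chr1:78488898-78488998, minus strand: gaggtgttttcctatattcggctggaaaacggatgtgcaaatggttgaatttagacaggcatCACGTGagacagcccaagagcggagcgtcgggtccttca
Iars, chr13:49682014-49682114, plus strand: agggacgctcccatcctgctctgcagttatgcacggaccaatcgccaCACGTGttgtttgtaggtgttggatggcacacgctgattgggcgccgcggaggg
Aars, chr8:111033649-111033749, plus strand: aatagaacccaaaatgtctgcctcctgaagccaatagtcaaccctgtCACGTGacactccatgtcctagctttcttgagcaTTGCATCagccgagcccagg
Counted from the gene's start, the E-box began at -189 in Eif4a1, -74 in Eif5a, -147 in Eef1aknmt, -39 in Farsb and -69 in Iars. Eif5a had further windows from other starts, with the letters at -178 and -185 from those starts. Windows of a gene can overlap, so these need not all be separate sites. In Aars the E-box began at -146 and the TTGCATC letters at -112. Iars also holds TTGCATC, past its start and outside the stretch shown.

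Brg1-Apc deficient relative to Apc deficient mice ask what loss of Brg1 adds when Apc is lost as well, and here 11 of the 84 genes fell and 0 rose. The 11 were 13.1% of the genes, where 3.89% of all genes were called lower and 3.92% higher. Among the 7632 genes with a mean above 5.90, 7.93% were called lower and 8.15% higher, and all 11 called members are among the 67 at that level. At an unadjusted p under 0.05, 24 were lower and 2 higher. Of the factors 7 fell, or 13%, and of the synthetases 4, or 13.3%. The median difference was -0.32 for factors and -0.29 for synthetases, against 0.05 for all genes and -0.04 for genes with a mean above 5.90. This comparison shares the Apc deficient arrays with the one above, so a high value on those arrays raises the first difference and lowers the second.

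These calls depended on single arrays. Without Apc deficient replicate 2, 0 factors and 0 synthetases were called. Without Apc deficient replicate 1, the counts were 2 and 2. Leaving out a Brg1-Apc deficient array gave 3 and 3 without replicate 1, 3 and 2 without replicate 2, 3 and 3 without replicate 3, and 2 and 1 without replicate 4. Without Apc deficient replicate 3, 4 factors and 3 synthetases were called. Without Brg1 deficient replicate 4, whose values enter only the shared spread, 13 factors and 6 synthetases were called. With Xist as a covariate the counts were 4 and 3. On slide 1 alone the medians were -0.33 for factors and -0.23 for synthetases, and on slide 2, with 1 Apc deficient array, -0.26 and -0.49. Markers of T cells and intraepithelial lymphocytes averaged 7.03 to 7.53 on the Brg1-Apc deficient arrays and 6.14 to 6.61 on the Apc deficient arrays, with 4 of 9 called higher and 0 lower. Markers of jejunal epithelium averaged 11.23 ± 0.19 on the 4 Brg1-Apc deficient arrays and 10.64 ± 0.33 on the 3 Apc deficient arrays (SD), without overlap, with 2 of 9 called higher and 0 lower. The part of either list in the result was not tested.

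Among the initiation factors, Eif1ad, Eif4g2, Eif4ebp1, Eif2b1 and Eif2b2 fell. Eif1ad, which encodes a protein related to eIF1A, read 8.32, 7.07, 8.51 and 8.02 on the Brg1-Apc deficient arrays, against 9.68, 9.61 and 9.005 on the Apc deficient arrays. All 4 lay below all 3, a difference of -1.45 (SE 0.33, adjusted p = 0.0121). Eif4g2, an eIF4G relative that supports cap-independent starts, read 6.96, 6.73, 6.30 and 6.06, against 9.03, 9.27 and 7.47 in Apc deficient mice. The groups did not overlap, though Apc deficient replicate 3 lay well below the other two and Brg1-Apc deficient values were near background, and the difference was -2.08 (SE 0.51, adjusted p = 0.0196). The call of Eif4g2 ended without Brg1-Apc deficient replicate 4 and without Apc deficient replicate 1 or 2, and that of Eif1ad without Apc deficient replicate 1 or 2. The Eif4g2 controls averaged 7.66 ± 0.32 (SD, n = 4), above all 4 Brg1-Apc deficient arrays, and overlapped with the Apc deficient arrays. The difference of Brg1-Apc deficient from control mice did not pass (-1.14, adjusted p = 0.189).

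Eif4ebp1 read 9.02, 9.85, 9.55 and 8.58 on the Brg1-Apc deficient arrays, against 9.95, 10.67 and 10.59 on the Apc deficient arrays. The fall of 1.15 (SE 0.33, adjusted p = 0.0418) lost its call without Brg1-Apc deficient replicate 1, 3 or 4 and without Apc deficient replicate 2 or 3. Quantile normalization ended this call too. Eif2b1 read 10.19, 10.00, 10.41 and 10.30, against 11.56, 11.54 and 11.46 in Apc deficient mice. Its fall of 1.30 (SE 0.37, adjusted p = 0.0446) had no overlap, but with its p close to 0.05 it was not called under 18 of 30 other settings, 13 of them with 1 array left out. Eif2b2 was next to the threshold as well (-0.72, SE 0.21, adjusted p = 0.0448), while Eif2b4 and Eif2b5 differed by -0.02 and -0.32 and did not pass.

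Of the elongation genes, Eef1e1 and Eif5a fell. Eef1e1 read 7.60, 6.48, 8.21 and 7.66 on the Brg1-Apc deficient arrays, against 8.90, 9.60 and 8.84 on the Apc deficient arrays (difference -1.63, SE 0.40, adjusted p = 0.0187). Its call ended without Brg1-Apc deficient replicate 2 or Apc deficient replicate 2 (largest adjusted p = 0.137). Eif5a averaged 11.003 ± 0.15 in Brg1-Apc deficient and 11.78 ± 0.23 in Apc deficient mice (difference -0.78, SE 0.21, adjusted p = 0.0357), a call that ended without any single Brg1-Apc deficient array and without Apc deficient replicate 1 or 2. Its second probe did not pass (-2.17, adjusted p = 0.13). Eef1d and Eef1g, which were higher in Apc deficient mice, differed by -0.16 (SE 0.21) and 0.20 (SE 0.20) and did not pass.

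Of the synthetases, Lars, Wars, Eprs and Iars2 fell. Lars, whose product also acts as a leucine sensor for mTORC1, read 8.50, 8.17, 8.45 and 8.18 on the Brg1-Apc deficient arrays, against 9.80, 10.05 and 9.78 on the Apc deficient arrays. The 2.92-fold difference (-1.55, SE 0.32, adjusted p = 0.00706) had no overlap, and its p was the lowest of the 84 genes in this comparison. It was not called without Apc deficient replicate 2 (adjusted p = 0.0518). Wars, the tryptophan enzyme, which interferon induces, read 9.98, 10.29, 10.32 and 9.72, against 10.87, 10.95 and 11.15 in Apc deficient mice (difference -0.91, SE 0.22, adjusted p = 0.017). Its call ended without Brg1-Apc deficient replicate 4 and without Apc deficient replicate 2 or 3. Wars is not among the genes called higher in Apc deficient against control mice (difference 0.26, SE 0.22, adjusted p = 0.576).

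Eprs averaged 7.79 ± 0.20 in Brg1-Apc deficient and 9.35 ± 0.52 in Apc deficient mice, with no overlap (difference -1.57, SE 0.42, adjusted p = 0.0321). This call ended without any single Brg1-Apc deficient array and without Apc deficient replicate 1 or 2. It also ended with quantile normalization. Iars2, the mitochondrial isoleucine enzyme, read 8.46, 6.99, 8.31 and 7.88, against 9.84, 9.81 and 9.11 in Apc deficient mice (difference -1.68, SE 0.42, adjusted p = 0.0228). It lost its call without Brg1-Apc deficient replicate 2 or 4 and without Apc deficient replicate 1 or 2. Farsb, Mars1 and Mars2 differed by -0.26, -0.53 and -0.59 and did not pass (SE 0.19, 0.27 and 0.25, adjusted p = 0.48, 0.296 and 0.186).

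In Brg1 deficient against control mice, where Apc was not deleted in either group, 3 of the 84 genes fell and 0 rose. The 3 were 3.57%, where 2.5% of all genes were called lower and 0.82% higher, so the share was close to that of all genes. At an unadjusted p under 0.05, 12 were lower and 1 higher. Genes with a mean above 5.90 leaned down as well. Of all such genes 35.3% had a positive difference, and of the 67 members at that level 25 did. The median difference was -0.10 for factors and -0.08 for synthetases, against 0.03 for all genes and -0.19 for genes with a mean above 5.90, of which 5.33% were called lower. The 67 members at that level had a median of -0.29. The 3 genes were Eif4e3, Eef2k and Iars2.

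Eif4e3, an eIF4E relative with a divergent cap-binding site, read 8.53, 7.35, 7.42 and 6.08 on the Brg1 deficient arrays, against 9.39, 9.53, 9.50 and 9.22 on the control arrays. The groups did not overlap, and replicate 4, the array that stood apart, was the lowest. The fall was 2.07 (SE 0.37, adjusted p = 0.00492). Eef2k read 6.09, 6.23, 6.16 and 6.26, against 7.64, 6.99, 6.86 and 7.22 in control mice. Its fall of 0.99 (SE 0.19, adjusted p = 0.00762) had no overlap, with Brg1 deficient values close to background. Iars2 read 8.24, 7.56, 6.72 and 6.04, against 8.93, 9.05, 8.79 and 9.20 in control mice (difference -1.85, SE 0.39, adjusted p = 0.0142). Its call ended without Brg1 deficient replicate 3 (adjusted p = 0.0571), whereas those of Eif4e3 and Eef2k held without any single array. With control replicates 1 and 4 both left out, 0 of the 3 were called, and so it was on slide 1 alone.

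Brg1-Apc deficient mice differed from control mice in 15 genes, 14 higher and 1 lower, or 16.7% and 1.19%, where 3.65% of all genes were called higher and 3.39% lower. Among genes with a mean above 5.90, 7.57% were called higher and 7.1% lower. The medians were 0.23 for factors and 0.16 for synthetases, against 0.03 for all genes. Eif3i rose the most clearly, at 14.06 ± 0.30 in Brg1-Apc deficient and 13.03 ± 0.09 in control mice (n = 4 each, difference 1.02, SE 0.20, adjusted p = 0.00447). Eif2b4 read 10.77, 11.34, 11.16 and 11.06, against 10.05, 9.93, 10.40 and 9.87 in control mice, with no overlap (difference 1.02, SE 0.20, adjusted p = 0.00498). Eif3d differed by 1.02 (SE 0.22, adjusted p = 0.00954). Of the 5 synthetases called, Mars2 was higher by 1.08 (SE 0.23, adjusted p = 0.0104), Farsb by 0.75 (SE 0.17, adjusted p = 0.0139) and Vars2 by 1.02 (SE 0.27, adjusted p = 0.0337). The other two were Gars and Sars. The call of Farsb ended without control replicate 4, and its second probe, with a mean of 11.12, did not pass (0.43, adjusted p = 0.442). That of Vars2 ended without Brg1-Apc deficient replicate 2 or 3 or any single control array, and that of Gars without any of 12 single arrays. The called genes of this comparison had 15 further probes, of which 14 differed in the same direction and 3 passed the test on their own. Eef1g averaged 14.69 ± 0.27 in Brg1-Apc deficient and 13.83 ± 0.10 in control mice (difference 0.86, SE 0.19, adjusted p = 0.0102).

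Eif4e3 was the 1 gene called lower, and it read 7.85, 6.98, 8.21 and 7.95 on the Brg1-Apc deficient arrays, against 9.39, 9.53, 9.50 and 9.22 on the control arrays (difference -1.66, SE 0.37, adjusted p = 0.0118). In Apc deficient mice it averaged 8.75 ± 0.16, and its difference of -0.66 from control did not pass (SE 0.40, adjusted p = 0.371). Without a single array, the counts of this comparison lay between 5 and 14 factors and between 1 and 8 synthetases. They were smallest without Brg1-Apc deficient replicate 3 (5 and 2) and control replicate 4 (5 and 1), and 6 and 2 without Brg1-Apc deficient replicate 2 or control replicate 1, 2 or 3. Leaving out Brg1-Apc deficient replicate 4 gave 3 synthetases, and leaving out Brg1 deficient replicate 4 gave 8. Without control replicates 1 and 4, 0 genes were called.

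Against Brg1 deficient mice, 15 genes were higher and 0 lower in Brg1-Apc deficient mice, or 17.9%, where 5.53% of all genes were called higher and 0.946% lower. Among genes with a mean above 5.90, 11.8% were called higher and 1.91% lower. At an unadjusted p under 0.05, 29 were higher and 0 lower. The medians were 0.40 for factors and 0.46 for synthetases, against -0.03 for all genes. Genes with a mean above 5.90 leaned up as well, with a median of 0.10 and 57.6% positive. The 67 members at that level had a median of 0.55, and 59 of them were positive. These mice all carried Cre, so Cre itself does not enter this comparison. Mars2 read 7.85, 8.22, 8.43 and 7.86, against 7.20, 6.64, 6.13 and 6.26 in Brg1 deficient mice (difference 1.53, SE 0.23, adjusted p = 0.000836). Farsb read 11.69, 11.98, 11.88 and 11.87, against 11.16, 10.63, 10.64 and 10.77 in Brg1 deficient mice (difference 1.06, SE 0.17, adjusted p = 0.00129). Eef1aknmt differed by 1.36 (SE 0.22, adjusted p = 0.00138), Eif3l by 0.83 (SE 0.17, adjusted p = 0.00647), Eif3d by 0.98 (SE 0.22, adjusted p = 0.0118) and Vars by 1.22 (SE 0.28, adjusted p = 0.0133). The call of Vars ended without Brg1-Apc deficient replicate 2 or Brg1 deficient replicate 3 (largest adjusted p = 0.0502). For each of these 6 genes every Brg1-Apc deficient array lay above every Brg1 deficient one. They were named for their small p in this comparison, so this separation is no further evidence. Counts without a single array ranged from 5 to 13 factors and from 2 to 7 synthetases. Factors numbered 5 without Brg1-Apc deficient replicate 3, 6 without Brg1 deficient replicate 3, and 7 without Brg1-Apc deficient replicate 2 or Brg1 deficient replicate 2. Leaving out Brg1-Apc deficient replicate 2 gave 2 synthetases, and leaving out Brg1 deficient replicate 4 gave 7.

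The interaction asks whether the effect of Apc loss differed with and without Brg1. Only the controls lacked Cre, so an effect of Cre enters it too. The interaction was called for 0 of the 84 genes in either direction, where 0.796% of all genes were higher and 0.271% lower. At an unadjusted p under 0.05, 2 were higher and 7 lower, and the lowest adjusted p was 0.266, for Eif2b2. For no gene of the 84 was the effect of Apc loss therefore shown to differ between mice with and without Brg1. Without Brg1 deficient replicate 4, 1 factor was called.

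Eif2s3y and Eif2s3x are the Y-linked and X-linked genes of the gamma subunit of eIF2. Eif2s3y read 5.26, 7.33, 7.97 and 5.68 on the Brg1-Apc deficient arrays, 4.92, 4.82 and 7.77 on the Apc deficient arrays, 7.61, 5.44, 7.39 and 5.22 on the Brg1 deficient arrays, and 7.43, 7.51, 7.35 and 7.95 on the control arrays. It was at background on the 5 arrays with high Xist and on Brg1 deficient replicate 4, and above 7 on the other 9. Its differences did not pass in any comparison (Apc deficient minus control -1.72, SE 0.75, adjusted p = 0.168). Eif2s3x read 10.63, 11.16 and 10.24 on the Apc deficient arrays, against 9.50, 9.25, 9.39 and 8.93 on the control arrays, a difference of 1.41 that did not pass (SE 0.64, adjusted p = 0.191). Apc deficient replicate 3, which had low Xist, also lay above all 4 controls, but it is 1 array. Xist level and genotype are partly mixed, and the part of sex in this difference was not tested.

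**Figure D5:**
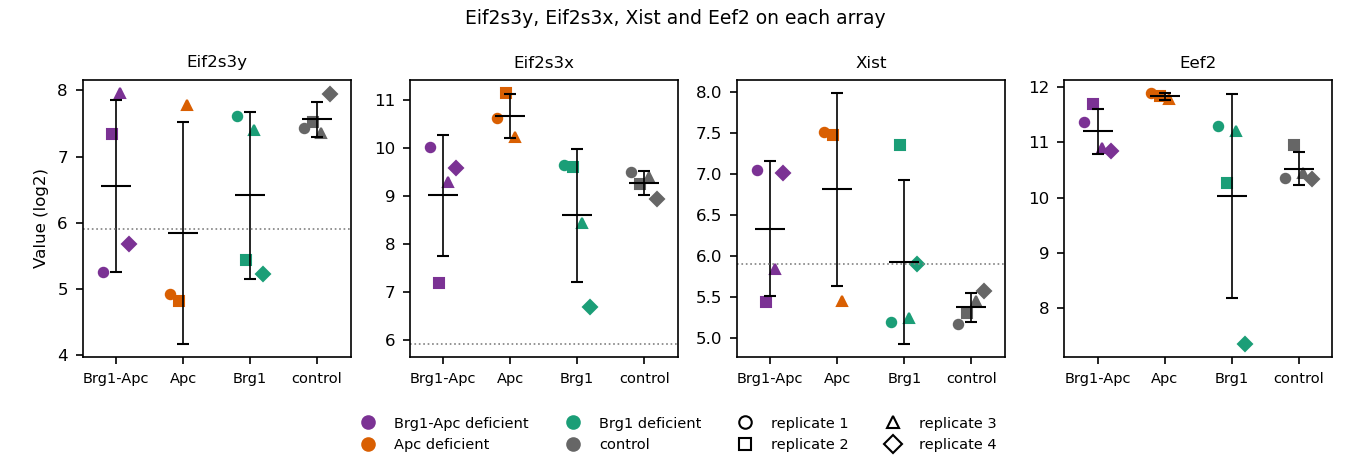
Log2 values of Eif2s3y, Eif2s3x, Xist and Eef2 on each array (vertical axes differ) by genotype. Points are arrays, bars are mean ± SD and the dotted line marks 5.90, the highest array median. Eif2s3y and Xist split the arrays of the 3 deficient groups, while all 4 control arrays were high in Eif2s3y and low in Xist.

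Other genes of translation and of its known regulators were taken from lists. As the background, 8.14% of all genes were called higher and 7.09% lower in Apc deficient against control mice. In Brg1-Apc deficient relative to Apc deficient mice, 3.92% of all genes were called higher and 3.89% lower. In termination and ribosome recycling, 3 of 8 genes were higher in Apc deficient mice than in controls and 0 lower, among them the release factor genes Etf1 (0.80, SE 0.17, adjusted p = 0.00351) and Gspt1 (0.94, SE 0.22, adjusted p = 0.00694). In Brg1-Apc deficient relative to Apc deficient mice, 2 of the 8 were lower, Gspt2 (-0.91, SE 0.24, adjusted p = 0.0299) and Mcts1 (-1.32, SE 0.38, adjusted p = 0.0454). Both of these calls ended when single arrays were left out. Of 8 measured cap and poly(A) regulators, 2 were higher and 1 was lower in Apc deficient than in control mice. Paip2b, an inhibitor of the poly(A)-binding protein, was higher by 1.24 (SE 0.21, adjusted p = 0.0008), and the poly(A)-binding protein gene Pabpc4 by 1.72 (SE 0.41, adjusted p = 0.00778). Mknk1, the kinase of eIF4E, was lower (-1.01, SE 0.21, adjusted p = 0.00288). Pabpc4 was the 1 gene of this list called in Brg1-Apc deficient relative to Apc deficient mice (-1.83, SE 0.41, adjusted p = 0.0107), and it was not called without Apc deficient replicate 2 (adjusted p = 0.0758).

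Of 6 eIF2 kinase and phosphatase genes, Ppp1r15a, the stress-induced subunit that directs eIF2 dephosphorylation, was the 1 called higher in Apc deficient mice (1.14, SE 0.32, adjusted p = 0.0255), and was not called when control replicate 1 or 3, or Apc deficient replicate 2 or 3, was left out. Of 10 mitochondrial translation factors, the release factor gene Mtrf1 was the 1 called (0.85, SE 0.22, adjusted p = 0.0146), and of 6 genes for the synthetase scaffold and further synthetases, the mitochondrial proline enzyme Pars2 (0.75, SE 0.21, adjusted p = 0.0236). Leaving out Apc deficient replicate 2 or 3 ended both calls, and that of Pars2 also ended without control replicate 3. Of 9 measured mTORC1 pathway genes, 0 were called in Apc deficient against control or in Brg1-Apc deficient relative to Apc deficient mice. Deptor, an inhibitor of mTOR, was the 1 called in other comparisons, lower in Brg1 deficient than in control mice (-0.99, SE 0.24, adjusted p = 0.0308) and higher in Brg1-Apc deficient than in Brg1 deficient mice (1.60, SE 0.24, adjusted p = 0.000681). The first of these calls ended without Brg1 deficient replicate 1 or 3 or control replicate 1 or 4. Srm and Odc1, enzymes that make the polyamine from which hypusine is formed, were 2 of 3 measured genes of that list called higher in Apc deficient mice. Srm read 10.79, 11.29 and 10.96, against 8.63, 8.89, 8.54 and 8.28 in control mice (2.43, SE 0.32, adjusted p = 0.000105), and Odc1 differed by 0.72 (SE 0.22, adjusted p = 0.0403). Odc1 was not called when any single control array, or Apc deficient replicate 2 or 3, was left out.

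ATF4 and amino acid response targets, which include amino acid transporters and serine synthesis enzymes, were called higher in Apc deficient mice in 12 of 20 cases and lower in 0, with a median difference of 1.54. In Brg1-Apc deficient relative to Apc deficient mice, 9 of the 20 were lower and 0 higher, with a median of -1.11, and these comparisons share the Apc deficient arrays. Psat1, an enzyme of serine synthesis, read 7.07, 7.18, 7.67 and 7.12 on the Brg1-Apc deficient arrays, 9.90, 11.37 and 10.61 on the Apc deficient arrays, 7.48, 6.24, 5.88 and 6.15 on the Brg1 deficient arrays, and 6.83, 7.93, 6.78 and 8.18 on the control arrays. The Apc deficient arrays stood above all 12 others. The difference was 3.20 in Apc deficient against control mice (SE 0.42, adjusted p = 9.83e-05) and -3.37 in Brg1-Apc deficient relative to Apc deficient mice (SE 0.42, adjusted p = 0.000154). Phgdh, the first enzyme of that path, differed by 2.41 (SE 0.30, adjusted p = 6.95e-05) and -1.87 (SE 0.30, adjusted p = 0.00123) in the same comparisons. Vldlr, a lipoprotein receptor, differed by 1.78 (SE 0.30, adjusted p = 0.000691) and -2.04 (SE 0.30, adjusted p = 0.000582). Atf4 itself was not called in either, at -0.36 and -1.43 (SE 0.88 each, adjusted p = 0.885 and 0.4).

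In the Myc family, 2 of 7 genes were called higher in Apc deficient mice and 0 lower. Myc read 5.44, 5.64, 5.22 and 4.49 on the Brg1-Apc deficient arrays, 7.11, 7.84 and 6.43 on the Apc deficient arrays, 5.75, 5.53, 5.06 and 5.76 on the Brg1 deficient arrays, and 5.59, 5.59, 5.49 and 5.29 on the control arrays. The 3 Apc deficient arrays, and none of the other 12, read above 5.90. With one side at background, the sizes of 1.64 against control (SE 0.31, adjusted p = 0.00162) and -1.93 in Brg1-Apc deficient relative to Apc deficient mice (SE 0.31, adjusted p = 0.00115) are uncertain. Mycl differed by 2.17 in Apc deficient against control mice (SE 0.28, adjusted p = 7.57e-05) and by -0.25 in Brg1-Apc deficient relative to Apc deficient mice (SE 0.28, adjusted p = 0.693).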

How the data were processed

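Total RNA from 15 mouse jejunal epithelium samples was hybridised to single-colour Illumina bead arrays, per the labels' protocols. The deposited values are log2 signals of 25695 probes, as their range shows. For the authors' background correction and normalization, a method is not stated in the sources used here. Means hardly varied between arrays while distributions did, and the values were used as deposited. Platform annotation gave 1 symbol for 23976 probes and none for 1719, and each of 16592 genes was read from its brightest probe, judged by the mean of the 15 arrays. The number of arrays limits the precision.

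Groups came from the labelled genotype. A limma model of the 4 group means was fitted to all probes with 11 residual degrees of freedom (limma 3.58.1, R 4.3.3), with 6 contrasts and Benjamini-Hochberg adjusted p-values over all probes, called under 0.05. Fold changes come from log2 differences. The fit was tested on simulated data. Nothing says that same-numbered replicates were paired.

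The members and the gene lists were chosen with earlier results of these data known. Genes were named by a fixed rule: in each role group, up to 3 called genes with the smallest p per direction and comparison (for the comparisons of Brg1-Apc deficient with control and Brg1 deficient mice and the interaction, per class), some fixed regulators, the highest-level genes of each class, and 2 called genes per list. Where a gene was named for its small p, a lack of overlap between the groups compared follows largely from that choice. Other genes named were chosen after their values were seen, and their calls were not followed gene by gene through the alternatives. The alternatives were normalization, centring, probe choice, filters, slide, replicate number, prior, array weights and single arrays left out. A covariate for Xist and 2 exclusions of array pairs were chosen after seeing the data.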

Additional observations from a re-analysis of the deposited data

Results flagged for a closer look

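Among the named genes, 105 groups of 4 arrays were searched for a value far from the rest, and 4 were found, where chance gives about 1 in 20. Eif5a read 10.7792 on Brg1 deficient replicate 1, above 10.34 to 10.38 on the other 3 arrays of that group. Eef1g read 14.4571 on Brg1 deficient replicate 4, against 13.95 to 13.99 on the others. Gars read 13.531 on the same array, against 12.54 to 12.71. Iars read 9.47695 on control replicate 2, against 9.11 to 9.15 on the other controls.

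The interaction was called for 3 genes of the lists, 2 lower and 1 higher. Of all genes, 0.796% were called higher and 0.271% lower. Because only the controls lacked Cre, an effect of Cre cannot be told apart here from an effect of Apc loss that differs with Brg1. The interaction was -1.849 for Phgdh on the log2 scale (limma adjusted p = 0.0446), not called under 17 of 29 alternatives. For Myc it was -1.968 (adjusted p = 0.0388), not called under 16 of 29, 11 of which left out a single array. Myc was below 5.90 on every array outside the Apc deficient group, and Phgdh was at most 7.01 there. For Deptor it was 1.624 (adjusted p = 0.0388), with a difference of 1.60 between Brg1-Apc deficient and Brg1 deficient mice and of -0.02 between Apc deficient and control mice. It was not called under 14 of 29 alternatives, 9 of which left out a single array.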

How the results depend on the processing

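The sign of every called difference of the named genes was kept in 2847 recomputations, of which 511 lost the call. All 358 recomputed medians moved by less than the spread between replicates, but that spread is wide. It takes in the compressed Brg1 deficient replicate 4, where the median over factors was 7.39, against 9.34 on Brg1 deficient replicate 1. It therefore does not show that the smaller medians are stable. Counts are given as factors, then synthetases. Leaving out 1 array gave 12 to 25 and 8 to 12 in Apc deficient against control mice, 0 to 13 and 0 to 6 in Brg1-Apc deficient relative to Apc deficient mice, 2 to 3 and 0 to 2 in Brg1 deficient against control mice, 5 to 14 and 1 to 8 in Brg1-Apc deficient against control mice, 5 to 13 and 2 to 7 in Brg1-Apc deficient against Brg1 deficient mice, and 0 to 1 and 0 to 0 for the interaction. On slide 2 alone, with 1 Apc deficient array, the counts in these comparisons were 0 and 0, 0 and 0, 0 and 1, 0 and 0, and 0 and 1. On slide 1 alone they were 10 and 3, 7 and 4, 0 and 0, 1 and 0, and 2 and 0, with 1 factor for the interaction. Without control replicates 1 and 4 they were 8 and 5, 3 and 3, 0 and 0, 0 and 0, and 8 and 4. Those settings hold fewer arrays. Fitting only the groups compared gave 12 factors in Brg1-Apc deficient relative to Apc deficient mice, 8 synthetases against control and 1 factor and 2 synthetases against Brg1 deficient mice. Array weights gave 11 factors in Brg1-Apc deficient relative to Apc deficient mice and 17 factors and 8 synthetases against control. The probe with the highest variance gave 5 factors in Brg1-Apc deficient against Brg1 deficient mice. The Xist covariate gave 4 factors in Brg1-Apc deficient relative to Apc deficient mice. Array weights, centring, testing 1 probe per gene, and a filter on the median level each gave 2 synthetases in Brg1 deficient against control mice. With both Brg1-Apc deficient replicate 2 and Brg1 deficient replicate 4 left out, 1 factor was called for the interaction and 26 factors in Apc deficient against control mice. The cause of these shifts was not tested.

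Same-numbered arrays correlated between -0.18 and 0.27 over 21 pairs, 8 of them over 0.1, and 6 of 15 arrays correlated best with their own number, so the numbers are not treated as pairs. A replicate block gave 18 factors and 11 synthetases in Apc deficient against control mice and 3 factors and 4 synthetases in Brg1-Apc deficient relative to Apc deficient mice. Signals near 5.90 limit the 17 genes close to background.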
